A study of Mus musculus with 8 samples.

Results

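The genes described here are the insulin-like growth factor (IGF) ligands and the IGF-binding proteins in mouse 3T3-L1 adipocytes. They are 8 genes of the 43629 in the deposited count file, chosen by name: Igf1, Igf2, Igfbp2, Igfbp3, Igfbp4, Igfbp5, Igfbp6 and Igfbp7. Of these 8, 7 had enough reads to be tested, and Igfbp2 did not. 3T3-L1 is a clonal line of mouse pre-adipocytes that forms adipocytes in culture, so replicates are cultures of 1 line and not animals. All groups were differentiated with insulin, dexamethasone, isobutylmethylxanthine and rosiglitazone in medium with serum, and were treated on day 8 for 24 h. There were 4 groups of 2 libraries: untreated, A66, palmitate, and palmitate plus A66. A66 blocks p110α, a catalytic subunit of PI3K, which carries the signal of the insulin and IGF1 receptors. The labels give 2 μM A66, whereas the methods give a lower dose against DMSO vehicle. Palmitate, a saturated fatty acid, was given at 0.5 mM on albumin, and the labels name no albumin control, so palmitate and its carrier cannot be told apart. The study examined what p110α inhibition does to gene expression in these cells, and its methods compare A66 with the control alone.

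IGF1 and IGF2 are secreted peptides related to insulin. Both act through the IGF1 receptor, a tyrosine kinase upstream of PI3K, while the IGF2 receptor mainly clears IGF2 from the cell surface. The IGF-binding proteins hold the ligands in the extracellular space, and proteases that cut a binding protein release the ligand again. IGFBP7 binds IGFs only weakly and is counted with the family for its related amino-terminal domain. Fat tissue makes IGF1, and 3T3-L1 cells secrete it as they differentiate.

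The libraries held between 42247091 and 57529803 counts, and 3 counts, taken as the smallest detectable amount, corresponded to between 0.0521 and 0.0710 CPM (counts scaled to a fixed library total), a floor for counting error alone. Replicates differed by more than counting noise, with chi-square values per gene that averaged from 6.15 to 8.99 in the 4 groups against an expected 1. The 11 adipocyte markers were all detected, the highest of them Lpl. Their summed level was 18038 to 18084 CPM in untreated cells and 17739 to 18435 CPM with A66. It was 15991 to 16959 CPM with palmitate and 15452 to 16529 CPM with palmitate plus A66. Of the 10 preadipocyte or fibroblast markers Dlk1 was at 0 in every library, and the list summed to between 1210 and 1517 CPM. The 5 endothelial markers summed to at most 1.77 CPM, with Kdr at 0. The 6 leukocyte markers summed to at most 10.4 CPM, mostly Cd14, with Adgre1 and Cd3e at 0. The labels say neither that replicates are separate cultures nor how they were grown, and the methods speak of biological repeats for A66 and control only, so for the palmitate groups the p-values may measure technical spread. The untreated and A66 replicates did not differ more than the others. Their chi-square averages were 6.33 and 6.15, against 8.99 with palmitate and 7.80 with palmitate plus A66.

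The 8 genes lie on 6 chromosomes of GRCm38. Igf1 (ENSMUSG00000020053) is at chr10:87858265-87937042 on the plus strand and Igf2 (ENSMUSG00000048583) at chr7:142650766-142666816 on the minus strand. Igfbp2 (ENSMUSG00000039323, chr1:72824503-72852474, plus) and Igfbp5 (ENSMUSG00000026185, chr1:72857932-72874884, minus) face each other with 5457 bases between their 3′ ends. Igfbp3 (ENSMUSG00000020427) is at chr11:7206086-7213923 on the minus strand, 3539 bases from Igfbp1, and Igfbp4 (ENSMUSG00000017493) is at chr11:99041244-99054392 on the plus strand. Igfbp6 (ENSMUSG00000023046) is at chr15:102144362-102149511, plus, and Igfbp7 (ENSMUSG00000036256) at chr5:77349240-77408041, minus. Igf1 and Igf2 each overlap an antisense gene, Igf1os with 3 to 24 counts and Igf2os with 3 to 14. Igf2 also overlaps Gm49394, a protein-coding gene on the same strand (chr7:142650769-142669942) that is not in the count file. Igfbp7 overlaps the oppositely transcribed Polr2b only at their ends (chr5:77349240-77349324), and Polr2b had 5923 to 7957 counts in all. The kit marks strand but the strand setting of the counting was not given in the sources used here, so reads shared by such pairs cannot be assigned.

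Promoter sequences are shown for Igf1, the 1 member called in a planned comparison under the main edgeR settings, for Igfbp4, the member with the most reads, and for Igfbp2, which was almost without reads. The sequences are from RefSeq on GRCm38.p6, each is the plus strand from 5′ to 3′, and each ends at the base before the start site. Capitals mark the TATAAA motif.
Igf1 (chr10:87860861-87861110): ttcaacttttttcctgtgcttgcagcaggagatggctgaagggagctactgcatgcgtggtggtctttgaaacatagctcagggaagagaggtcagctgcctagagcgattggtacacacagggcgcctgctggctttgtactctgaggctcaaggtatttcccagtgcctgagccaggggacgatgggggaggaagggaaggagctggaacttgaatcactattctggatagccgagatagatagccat
Igfbp4 (chr11:99040994-99041243): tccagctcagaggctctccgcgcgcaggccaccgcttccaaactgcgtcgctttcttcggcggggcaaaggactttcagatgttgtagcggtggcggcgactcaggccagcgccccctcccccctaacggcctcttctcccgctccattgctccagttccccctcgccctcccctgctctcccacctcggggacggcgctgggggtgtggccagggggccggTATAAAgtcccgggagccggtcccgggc
Igfbp2 (chr1:72824230-72824479, the first of 2 windows): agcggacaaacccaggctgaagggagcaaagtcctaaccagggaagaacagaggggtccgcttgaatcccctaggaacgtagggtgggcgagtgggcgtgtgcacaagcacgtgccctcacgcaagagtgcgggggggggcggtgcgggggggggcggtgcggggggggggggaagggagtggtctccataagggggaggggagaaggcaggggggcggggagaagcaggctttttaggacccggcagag
In the Igfbp4 promoter the TATAAA motif began 28 bases before the start site. All 8 members matched the table, with 12 windows that run from 250 bases before a start site to 50 after it. None of the 12 held the FOXO motif TGTTTAC (or GTAAACA on the other strand), and none held the insulin response core TGTTTTG (or CAAAACA), which are in 3.65% and 6.28% of all 32851 windows of the same length. TATAAA (or TTTATA) was in 2 of the 12, Igfbp4 and Igfbp6, and in 13.6% of all windows. Over the full window the GC content was 52.3% for Igf1, 67.0% for this window of Igfbp2 and 71.3% for Igfbp4, against a median of 52.7% over all windows. Igf1 had 6 CpG sites, Igfbp2 had 18 and Igfbp4 had 27, against a median of 7. A match to these letters is a description and not a bound site.

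Among the members, Igfbp7 and Igfbp4 were by far the most abundant transcripts, the ligands and Igfbp3 were intermediate, and Igfbp5, Igfbp6 and Igfbp2 were low or almost absent. Levels of different genes were compared as CPM per kilobase of exon, over the joined exons of all transcripts of a gene. This length was 9904 bases for Igf1, 5723 for Igf2, 4416 for Igfbp4 and 1209 for Igfbp7, and the order within these pairs depends on it. In CPM, Igfbp4 (582 to 684) lay above Igfbp7 (202 to 231), and Igf1 had more counts than Igf2 in every library. Over the 8 libraries Igfbp7 had a median of 175 CPM per kilobase (167 to 191) and Igfbp4 a median of 142 (132 to 155), and their ranges did not overlap. They ranked 157th and 207th of the 14463 genes ranked. Igf2 followed with a median of 16.9 CPM per kilobase (16.3 to 18.4), above Igfbp3 in every library. Igfbp3, at 12.6 (11.1 to 13.7), and Igf1, at 11.1 (10.0 to 11.9), overlapped in their ranges. Igfbp6, at 0.331 (0.261 to 0.445), and Igfbp5, at 0.259 (0.172 to 0.332), also overlapped.

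**Figure D1:**
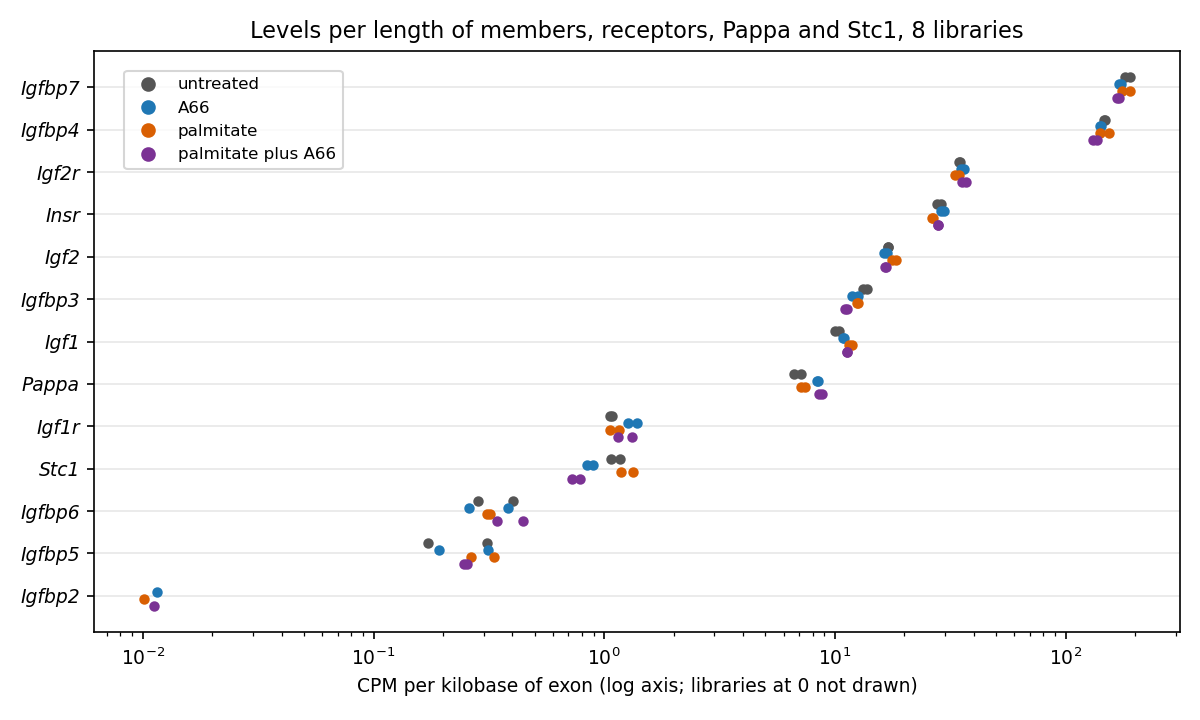
Level of each member, the receptors, Pappa and Stc1 as CPM per kilobase of exon on a log axis, with 1 point per library coloured by group and libraries at 0 left out. Igfbp7 and Igfbp4 lie above all others, and Igf2, Igfbp3 and Igf1 lie between 10.0 and 18.4 CPM per kilobase.

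Igfbp7 made up 52.3% to 54.1% of the summed level of the 6 binding proteins and Igfbp4 made up 41.9% to 43.6%. Igfbp3, the main carrier of IGFs in serum, made up 3.48% to 3.91% and Igfbp5 and Igfbp6 at most 0.142% each. The Igfbp7 share was 52.9% and 52.3% after A66, below the palmitate libraries (53.3% and 53.2%) and overlapping the untreated ones (54.0% and 52.8%), and the Igfbp4 share overlapped between the groups other than A66, whose libraries were the highest. The shares were not tested. The summed binding proteins stood at 12.7 to 12.8 times the summed ligands in untreated cells, 11.9 to 12.0 times with A66, 11.3 to 11.9 times with palmitate, and 11.2 to 11.3 times with palmitate plus A66. The ratio was thus highest in the untreated libraries, and it was computed after the values were seen and not tested. Igfbp7, which binds IGFs only weakly, made up 52.3% to 54.1% of the binding protein sum. Both sums also depend on the exon lengths used, so the ratio is not a measure of binding capacity.

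Igf1 rose with palmitate and was the 1 member called in any planned comparison under the main edgeR settings. Its level was 104 and 99.2 CPM untreated, 108 and 107 CPM after A66, 114 and 118 CPM after palmitate and 112 and 112 CPM after both agents. Both palmitate libraries lay above every other library, and both untreated libraries lay below every other. The untreated mean was 101 ± 3.18 CPM (SD, n = 2) and the palmitate mean was 116 ± 2.47 CPM (SD, n = 2), a difference of 14.3% (log2 fold change 0.19, SE 0.04, 95% interval 0.11 to 0.28, adjusted p = 0.0221, edgeR quasi-likelihood test with Benjamini-Hochberg adjustment). In this comparison 1.17% of the 14587 genes tested were called, beside 1 of the 7 members. The call was lost without untreated replicate 2 (adjusted p = 0.137, edgeR), without palmitate replicate 1 (adjusted p = 0.0531) and without palmitate replicate 2 (adjusted p = 0.0842), with log2 fold changes of 0.16, 0.22 and 0.17.

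In the other comparisons Igf1 did not pass the test. The log2 fold change was 0.09 for A66 over untreated (95% interval 6.2e-04 to 0.18, adjusted p = 0.386, edgeR), -0.05 for palmitate plus A66 over palmitate (-0.13 to 0.04, adjusted p = 0.678) and 0.06 for palmitate plus A66 over A66 (-0.03 to 0.15, adjusted p = 0.553). The preadipocyte or fibroblast markers summed to 1475 to 1517 CPM with palmitate, against 1258 to 1326 CPM in untreated cells. Col1a1 had the highest level of this list (mean 639 CPM over the 8 libraries), and the median log2 fold change of the 9 markers tested was 0.05. Of these, 2 (Postn and Col1a1) rose with palmitate in the same test. Among the 11 adipocyte markers 1, Lpl, fell, and the median of that list was -0.08. The part of these markers in the Igf1 result was not tested. In cultures measured as bulk RNA, fewer cells of a type and less RNA per cell cannot be told apart.

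The genes whose profile was nearest to Igf1 over the 8 libraries were Kdelr2, a retrieval receptor of the endoplasmic reticulum, and Asna1, a targeting factor for tail-anchored proteins. Their profiles differed from that of Igf1 by a root mean square of 0.0263 and 0.0295 on the log2 scale, where the median over 14396 genes was 0.120 and Igf1 itself varied by 0.0748 about its mean. Neither passed the test with palmitate (log2 fold changes 0.14 and 0.13, adjusted p = 0.145 and 0.161, edgeR).

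Igf2 did not pass the test in any comparison. Its level was 97.3 and 97.5 CPM untreated, 96.6 and 93.3 CPM after A66, 101.0 and 105 CPM after palmitate and 95.5 and 94.6 CPM after both agents. The palmitate libraries lay above all others. The log2 fold change was 0.08 with palmitate (95% interval -0.0052 to 0.17, adjusted p = 0.449, edgeR) and -0.12 for palmitate plus A66 over palmitate (-0.21 to -0.03, adjusted p = 0.162). It was -0.03 for A66 over untreated (-0.12 to 0.06). For palmitate plus A66 over A66 it was 0.0015 (-0.09 to 0.09), and its sign turned with the scaling.

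**Figure D2:**
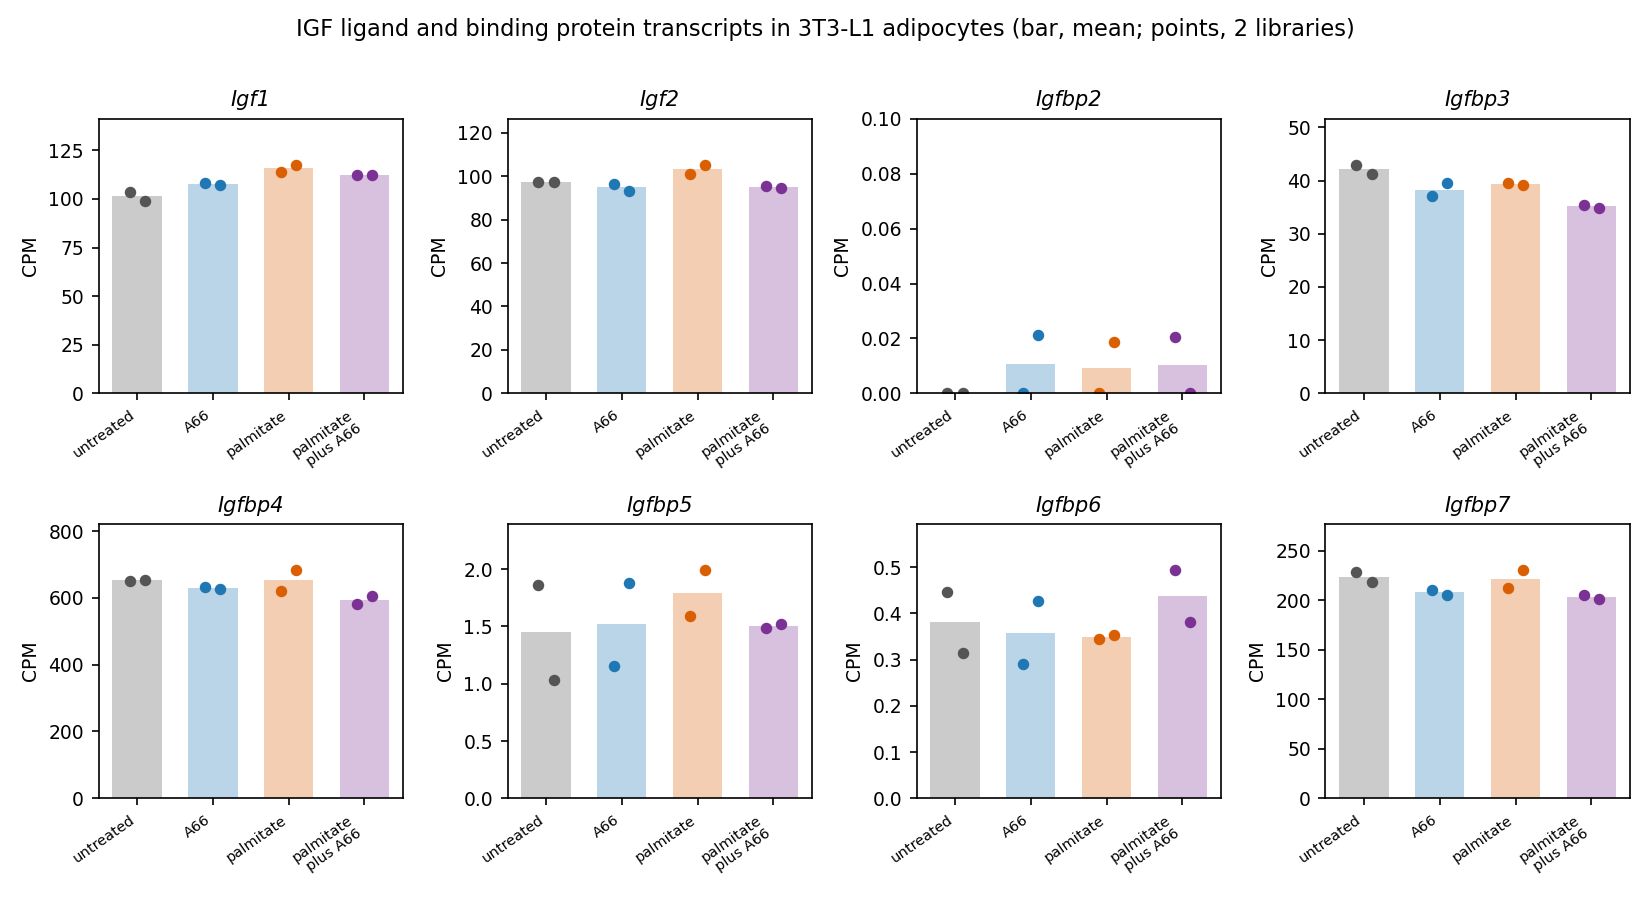
Level of each of the 8 members in CPM (linear axes from 0, a different scale for each gene), with bars for group means and points for the 2 libraries of each group. Igf1 is lowest in the untreated libraries (99.2 and 104 CPM), and Igfbp3 is lowest with palmitate plus A66 (34.8 and 35.5 CPM).

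Within each library, the log2 ratio of Igf1 counts to Igf2 counts was 0.02 and 0.09 untreated, 0.16 and 0.20 after A66, 0.16 and 0.18 after palmitate and 0.23 and 0.25 after both agents. Every treated library lay above both untreated libraries, and the libraries with both agents lay above all others. This ratio does not depend on the scaling of libraries, but it was chosen after the values were seen and has no test.

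Of the binding proteins, Igfbp3, Igfbp4 and Igfbp7 were each lower in the A66 libraries than in the matching libraries without A66. The amounts were small and did not pass the test in either comparison alone under the main edgeR settings. Igfbp4 passed for A66 added to palmitate under some other settings, given below. Igfbp3 was at 43.0 and 41.3 CPM untreated, 37.0 and 39.5 CPM after A66, 39.6 and 39.1 CPM after palmitate and 35.5 and 34.8 CPM after both agents. The libraries with both agents lay lowest and the untreated libraries highest, with no overlap between these and the rest. The log2 fold change was -0.14 for A66 over untreated (95% interval -0.25 to -0.02, adjusted p = 0.301, edgeR), -0.16 for palmitate plus A66 over palmitate (-0.28 to -0.05, adjusted p = 0.126), -0.12 for palmitate plus A66 over A66 (-0.24 to -0.0085, adjusted p = 0.293) and -0.10 for palmitate over untreated (-0.21 to 0.01, adjusted p = 0.492).

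Igfbp4 binds IGFs with high affinity and is cut by the protease Pappa. Its level was 650.0 and 655 CPM untreated, 632 and 626 CPM after A66, 622 and 684 CPM after palmitate and 582 and 604 CPM after both agents. The libraries with both agents lay below all others, and the palmitate libraries spanned those of both other groups. The log2 fold change of palmitate plus A66 over palmitate was -0.14 (95% interval -0.23 to -0.05, adjusted p = 0.109, edgeR). This gene passed the test with DESeq2 (adjusted p = 0.0492), with scaling by library size only (adjusted p = 0.0492, edgeR), without the filter on low counts (adjusted p = 0.0138, edgeR) and without palmitate replicate 1 (adjusted p = 0.00999, edgeR, log2 fold change -0.21). Without palmitate replicate 2 the value was -0.07 (adjusted p = 0.660, edgeR), so its size rested on which palmitate library was kept. A66 over untreated gave -0.05 (-0.13 to 0.03), palmitate over untreated 0.0018 (-0.09 to 0.09), and palmitate plus A66 over A66 -0.08 (-0.18 to 0.0086).

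Igfbp7, a matrix-associated protein of vessels and stroma, was at 229 and 219 CPM untreated, 211 and 206 CPM after A66, 213 and 231 CPM after palmitate and 205 and 202 CPM after both agents. All libraries with A66 lay below all libraries without it. The log2 fold change was -0.10 for A66 over untreated (95% interval -0.19 to -0.02, adjusted p = 0.268, edgeR) and -0.12 for palmitate plus A66 over palmitate (-0.22 to -0.03, adjusted p = 0.158). Without palmitate replicate 1 the second value was -0.18 (adjusted p = 0.0381, edgeR), and without palmitate replicate 2 it was -0.06 (adjusted p = 0.731). Palmitate over untreated gave -0.01 (-0.11 to 0.08) and palmitate plus A66 over A66 gave -0.03 (-0.13 to 0.06).

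After these values had been seen, the A66 effect was also averaged over both palmitate states in the fit on all 8 libraries. Under this average Igfbp3 fell by 0.15 on the log2 scale (SE 0.04, adjusted p = 0.0223, edgeR) and Igfbp7 fell by 0.11 (SE 0.03, adjusted p = 0.0339), while Igfbp4 was at -0.10 (SE 0.03, adjusted p = 0.0849). That is 2 of 7 members, where 4.97% of all genes tested were called. The palmitate effect averaged over both A66 states gave 0.13 for Igf1 (SE 0.03, adjusted p = 0.0117, edgeR), the 1 member called where 5.05% of all genes were. Of the adipocyte markers, 3 fell with A66 added to palmitate (Cidec, Slc2a4 and Retn) and none was called for A66 alone. The fibroblast markers Postn and Col1a1 also fell when A66 was added to palmitate, and 7 of the 11 adipocyte markers fell when palmitate was added to A66 (Adipoq, Plin1, Cidec, Slc2a4, Lpl, Retn and Cfd), while the myofibroblast markers Acta2 and Tagln rose with A66 in both comparisons. The myofibroblast list summed to 269 to 279 CPM untreated, 300 to 340 CPM after A66, 241 to 269 CPM after palmitate and 281 to 335 CPM after both agents. The part of these cell markers in the binding protein values was not tested.

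Igfbp5 and Igfbp6 had few reads, and their intervals were wide. Igfbp5, which binds matrix as well as IGFs, was at 1.86 and 1.04 CPM untreated, 1.16 and 1.88 CPM after A66, 1.59 and 2.00 CPM after palmitate and 1.48 and 1.53 CPM after both agents, from 56 to 107 counts a library. Igfbp6, which prefers IGF2, had 15 to 24 counts a library, or 0.290 to 0.495 CPM. For both genes replicates of 1 group differed by as much as the groups did. Among the 4 comparisons between groups, the largest log2 fold change of Igfbp5 was 0.33 with palmitate (95% interval -0.24 to 0.90), and that of Igfbp6 was 0.32 for palmitate plus A66 over palmitate (-0.61 to 1.25), and neither passed the test. Igfbp2, a binding protein of fetal tissue and of white fat, had 1 count in each of 3 libraries and 0 in the other 5. It was below the floor of 3 counts in every library, and no fold change is given.

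**Figure D3:**
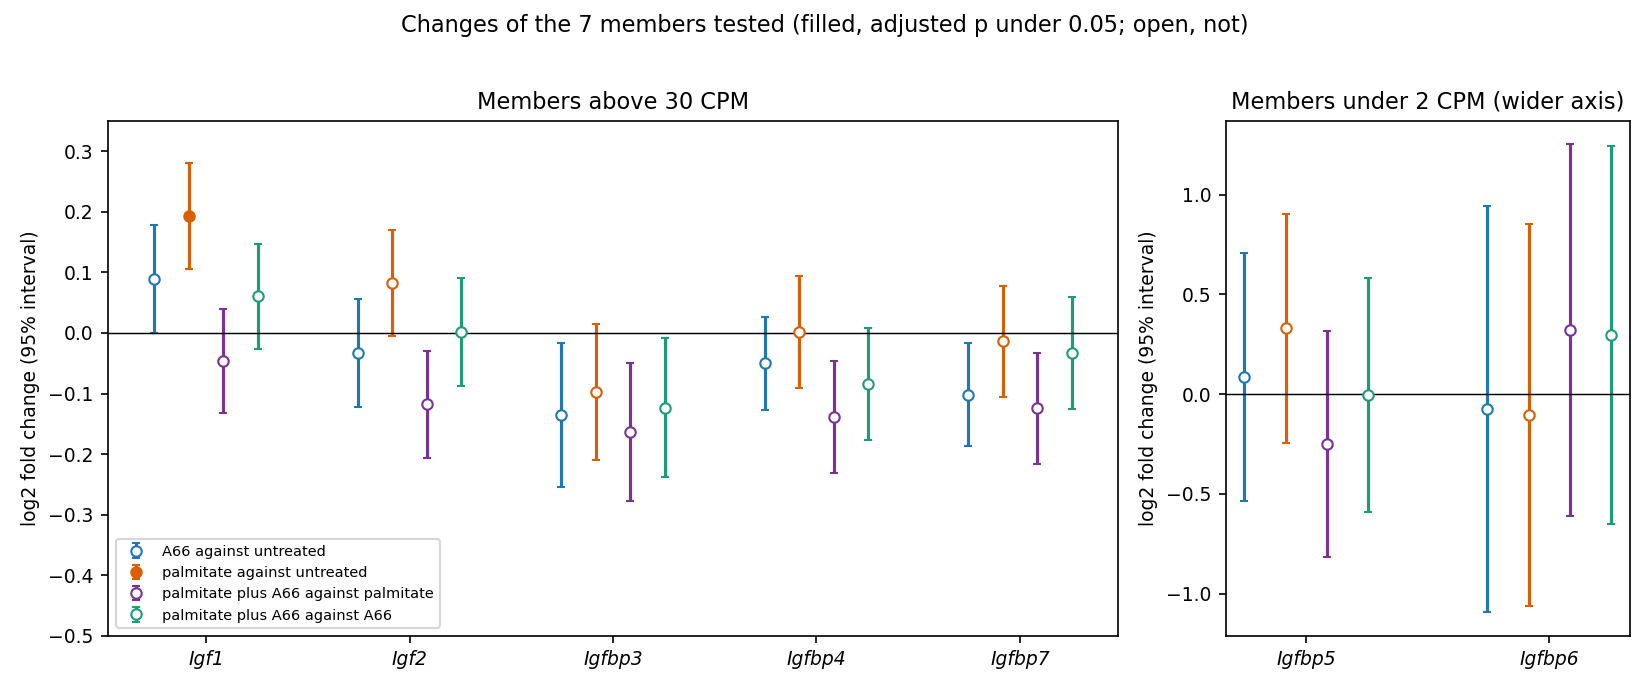
Log2 fold changes of the 7 members tested, with 95% intervals from edgeR, for the 4 comparisons between groups, the left panel for members above 30 CPM and the right for Igfbp5 and Igfbp6 on a wider axis. The 1 filled point, Igf1 with palmitate at 0.19, is the value with an adjusted p under 0.05.

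Over the 7 members tested, 0 were called for A66 over untreated (3 at an unadjusted p under 0.05 with edgeR, and 0 of the 5 to which DESeq2 gave an adjusted p), where 1.84% of all genes tested were called and 12.8% had an unadjusted p under 0.05. The median log2 fold change of the members was -0.05, against -0.0011 for all genes. For palmitate plus A66 over palmitate 0 were called (4 at an unadjusted p under 0.05, and 1 of 6 with DESeq2), where 2.81% of all genes were and 14.4% had such an unadjusted p, and the median was -0.12 against -7.9e-04. For palmitate plus A66 over A66 0 were called (1 unadjusted, and 0 of 5 with DESeq2), where 2.73% of all genes were and 14.6% had such an unadjusted p, with a median of -0.0036 against 4.4e-04. With palmitate the median was 0.0018 against 5.3e-04. When A66 was added to palmitate the 2 groups of libraries did not overlap for any of the 7 members, 6 of them lower and 1 (Igfbp6) higher, where 44.3% of all genes had groups that did not overlap and 22.4% were lower in this way. For A66 over untreated the groups did not overlap for 5 of 7, with 4 lower and Igf1 higher, where 42.7% of all genes had such groups and 22.3% were lower in this way. It was 3 of 7 for palmitate over untreated (40.5% of all genes) and 4 of 7 for palmitate plus A66 over A66 (46.6%). The 2 A66 comparisons have no library in common, whereas both palmitate comparisons share libraries with them.

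Whether the A66 effect differed with palmitate was tested as an interaction. None of the 7 members was called (1 at an unadjusted p under 0.05 with edgeR, and 0 of the 2 to which DESeq2 gave an adjusted p), where 0.00686% of all genes were and 7.92% had an unadjusted p under 0.05. The smallest p was that of Igf1, with a difference of -0.13 on the log2 scale (95% interval -0.26 to -0.0097, unadjusted p = 0.0357, adjusted p = 0.600, edgeR quasi-likelihood test across all genes). For Igfbp3 the difference was -0.02 (-0.19 to 0.14), and for Igfbp7 -0.02 (-0.15 to 0.11).

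The other genes of the IGF system were described from a list of 34, of which 31 were tested. With A66 over untreated 3 of the 31 rose and 0 fell, where 1.84% of all genes were called. With A66 added to palmitate 3 rose and 2 fell, where 2.81% of all genes were called, and with palmitate added to A66 0 rose and 1 fell, where 2.73% were. With palmitate over untreated 0 were called, where 1.17% of all genes were, and in the interaction 0, where 0.00686% were. At an unadjusted p under 0.05 with edgeR there were 9 of the 31 for A66 over untreated (12.8% of all genes), 6 for palmitate over untreated (12%), 8 for A66 added to palmitate (14.4%), 12 for palmitate added to A66 (14.6%) and 5 for the interaction (7.92%). In the same order the median log2 fold changes of the list were 0.05, -0.02, 0.02 and -0.07 in the comparisons between groups. In all genes 6.11% were called in at least 1 of the 5 planned tests. By role, 4 of the 8 binding-protein proteases and inhibitors were called in at least 1 of them, 1 of the 3 receptors tested, 1 of 5 CCN proteins and 1 of 4 genes of the growth hormone axis, and none of the receptor substrates, the IGF2 mRNA-binding proteins or the cell-surface partners. Under the averaged A66 effect 3 of the 31 rose (Igf1r, Pappa and Ccn1) and 2 fell (Stc1 and Adam12), where 4.97% of all genes were called. Under the averaged palmitate effect, where 5.05% of all genes were called, 0 rose and 3 fell, which were Adam12 by 0.22 on the log2 scale (adjusted p = 0.00446, edgeR), the CCN family gene Ccn5 by 0.16 (adjusted p = 0.0381) and Stat5a, a transcription factor of growth hormone signalling, by 0.15 (adjusted p = 0.0203).

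The receptor genes stood in the order Igf2r, Insr and Igf1r per length. Over the 8 libraries the median was 35.1 CPM per kilobase for Igf2r, 27.9 for Insr, the insulin receptor, and 1.15 for Igf1r. Igf1r was at 18.1 and 17.8 CPM untreated, 21.2 and 23.4 CPM after A66, 19.4 and 17.7 CPM after palmitate and 22.1 and 19.3 CPM after both agents. It rose by 0.32 on the log2 scale with A66 over untreated (SE 0.08, adjusted p = 0.0293, edgeR), and this call was lost with all 8 libraries in the fit (adjusted p = 0.0606), with DESeq2 (adjusted p = 0.0602) and without A66 replicate 2 (0.25, adjusted p = 0.377). With A66 added to palmitate it was at 0.16 (95% interval -0.01 to 0.33, adjusted p = 0.391, edgeR). Igf2r and Insr did not pass in any comparison, with log2 fold changes from -0.10 to 0.09.

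Pappa, the secreted protease that cuts Igfbp4, rose with A66 both with and without palmitate. It was at 79.0 and 73.3 CPM untreated, 93.6 and 92.4 CPM after A66, 82.0 and 78.8 CPM after palmitate and 97.0 and 94.4 CPM after both agents. All libraries with A66 lay above all libraries without it. The log2 fold change was 0.29 over untreated (SE 0.05, adjusted p = 9.67e-04, edgeR) and 0.25 over palmitate (SE 0.05, adjusted p = 0.00269), and both calls held when each library was left out in turn (adjusted p at most 0.0156 and 0.0492). The myofibroblast markers Acta2 and Tagln rose in the same 2 comparisons, and their part in the Pappa, Igf1r, Stc1 and Ccn1 values was not tested.

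Stc1, an inhibitor of Pappa, was at 4.90 and 4.49 CPM untreated, 3.53 and 3.75 CPM after A66, 4.98 and 5.59 CPM after palmitate and 3.30 and 3.05 CPM after both agents. All libraries with A66 lay below all libraries without it. It fell by 0.73 on the log2 scale when A66 was added to palmitate (SE 0.14, adjusted p = 0.00458, edgeR), a call lost without palmitate replicate 2 (adjusted p = 0.0831) and without palmitate plus A66 replicate 2 (adjusted p = 0.0522). Over untreated the value with A66 was -0.36 (95% interval -0.68 to -0.05, adjusted p = 0.295, edgeR). Within libraries the log2 ratio of Pappa to Stc1 counts, also chosen after the values were seen, was 4.01 and 4.03 untreated, 4.73 and 4.62 after A66, 4.04 and 3.82 after palmitate and 4.88 and 4.95 after both agents.

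**Figure D4:**
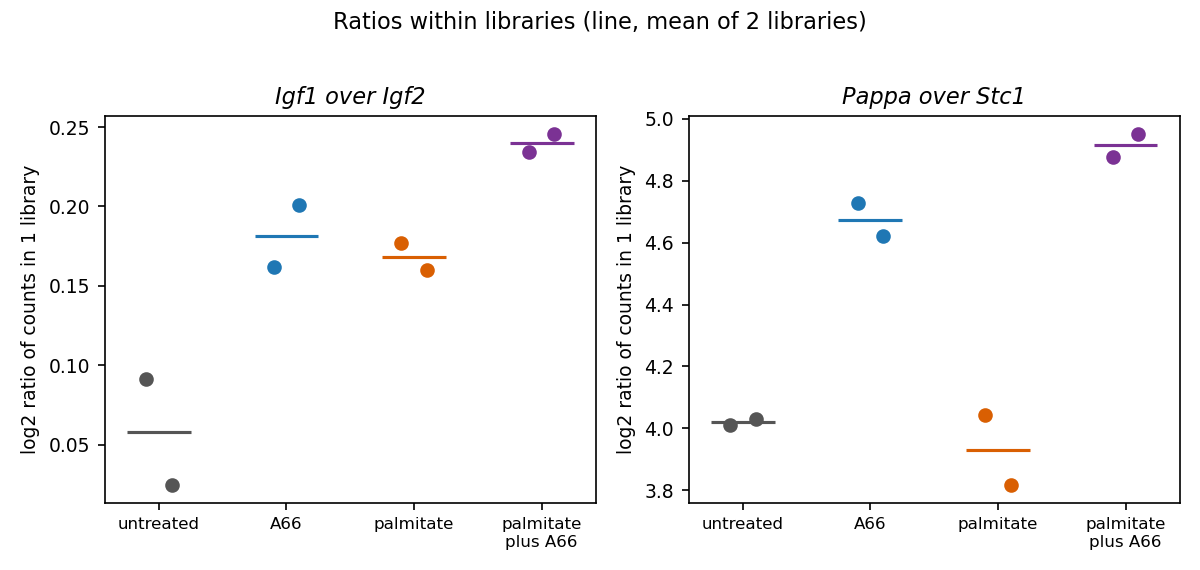
Log2 ratio of Igf1 to Igf2 counts (left) and of Pappa to Stc1 counts (right) within each library, on axes that do not start at 0, with points for libraries and lines for the mean of 2. The Pappa to Stc1 ratio lies between 4.62 and 4.95 in the 4 libraries with A66 and between 3.82 and 4.04 in the 4 without.

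The other genes of the system called in a planned comparison changed in 1 or 2 of them each. Adam12, a membrane protease that can cut Igfbp3 and Igfbp5, was at 48.2 and 53.8 CPM with palmitate plus A66, below the 60.2 to 72.5 CPM of the other 6 libraries. It fell by 0.32 over palmitate (SE 0.06, adjusted p = 0.00654, edgeR) and by 0.34 over A66 (SE 0.06, adjusted p = 0.00308). Without palmitate plus A66 replicate 1 neither call held (adjusted p = 0.127 and 0.106), and the first was also lost without palmitate replicate 2 (0.138) and the second without A66 replicate 1 (0.0671). Ccn1, a matrix protein with an IGFBP-like domain, was at 28.3 and 27.0 CPM with palmitate and 43.4 and 38.6 CPM with both agents, a rise of 0.57 (SE 0.08, adjusted p = 4.13e-04, edgeR). Jak2, the kinase of the growth hormone receptor, rose by 0.18 in the same comparison (SE 0.04, adjusted p = 0.0204, edgeR), a call lost without any 1 of the 4 libraries (adjusted p from 0.0624 to 0.216). Htra3, a serine protease, rose by 0.21 with A66 over untreated (SE 0.05, adjusted p = 0.0243, edgeR), and this was lost with all 8 libraries in the fit (adjusted p = 0.135), without A66 replicate 1 (0.150) and without A66 replicate 2 (0.249). The cell markers named above moved in these comparisons too: 7 of the 11 adipocyte markers fell with palmitate added to A66, Cidec, Slc2a4, Retn, Postn and Col1a1 fell with A66 added to palmitate, and Acta2 and Tagln rose in both A66 comparisons. Their part in the Adam12, Jak2 and Htra3 values was not tested. Igfals, the serum partner of the complex of Igfbp3 with a ligand, is given after its values were seen, since it is the 1 carrier of the list that was tested, and it was at 21.3 to 25.6 CPM over the 8 libraries and was not called.

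**Figure D5:**
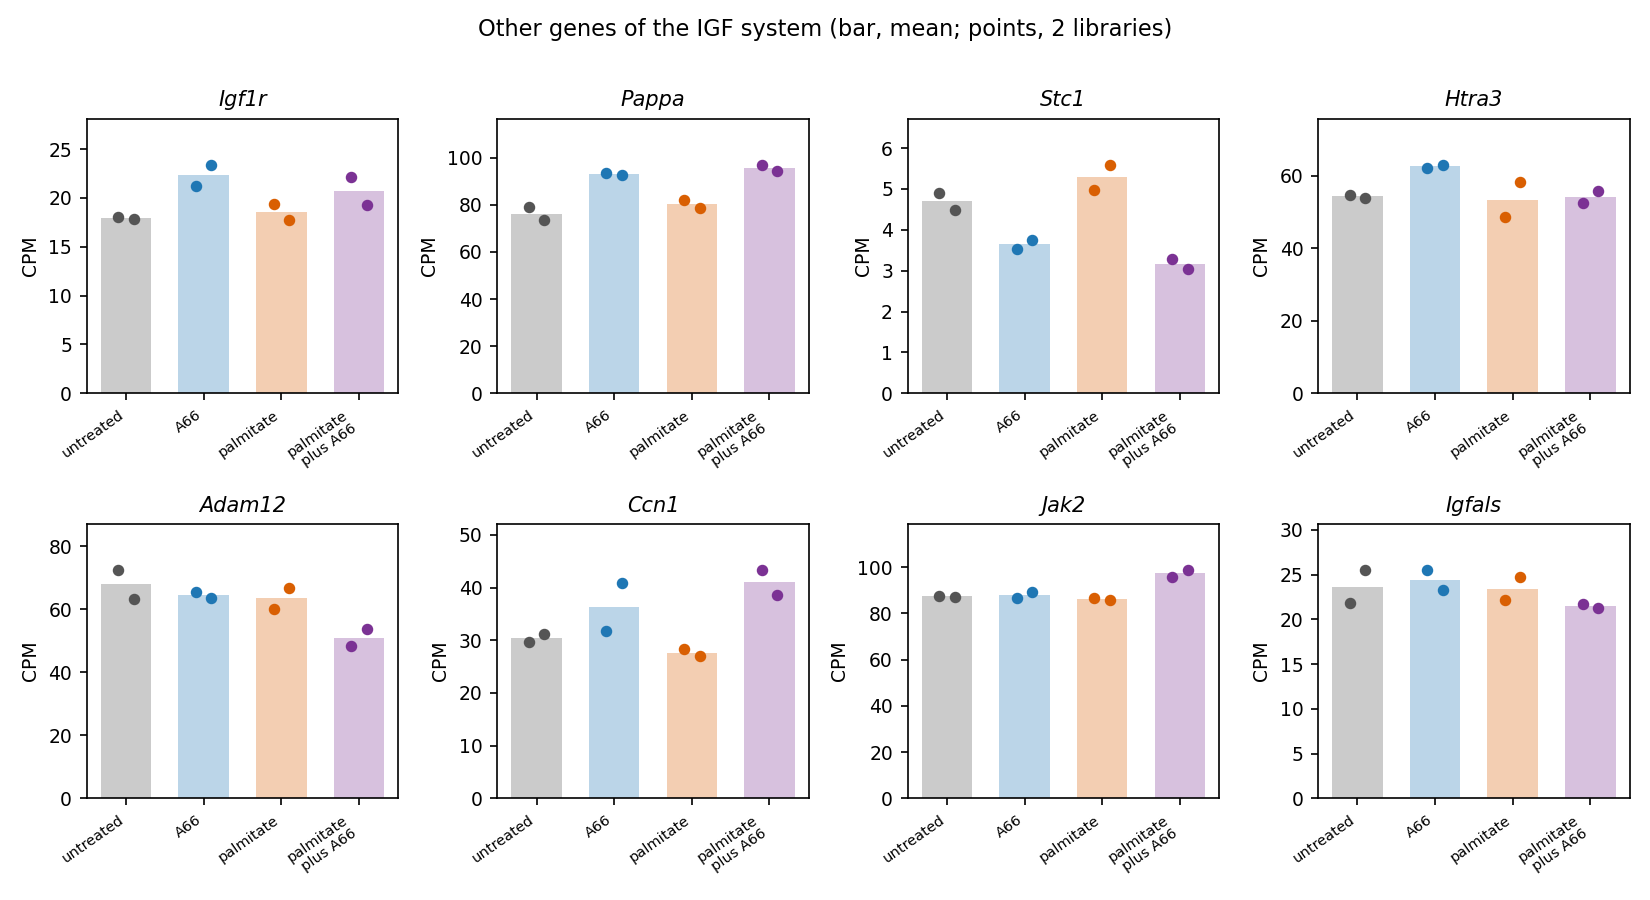
Level in CPM (linear axes from 0) of the 7 other IGF system genes called in at least 1 planned comparison, and of Igfals, which was not called, with bars for group means and points for the 2 libraries of each group. Pappa is higher in the 4 libraries with A66 (92.4 to 97.0 CPM) than in the 4 without (73.3 to 82.0 CPM), and Stc1 is lower.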

How the data were processed

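The authors aligned paired-end reads from oligo dT selected RNA with TopHat2 2.0.11 to GRCm38, per the study's methods, and deposited raw HTSeq counts per Ensembl gene, without normalization. The annotation and strand setting of the counting were not given in the sources used here. The 6 columns of the authors' own DESeq2 comparison (mean, fold change, error, statistic and p-values) were not used. Groups were taken from the treatment label. A66 acts on an enzyme and not on a transcript, so no transcript of its target checks whether treated and untreated libraries were interchanged. Downstream responses were not used as a check, and each direction given for A66 rests on that label. Of 43629 genes, 42462 matched a symbol in GENCODE M21, which also gave exon lengths and positions.

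Counts were analysed in R 4.3.3 with edgeR 4.0.16 (TMM, filterByExpr with a minimum count of 10, quasi-likelihood tests, Benjamini-Hochberg adjustment over all genes tested, threshold 0.05). A66 was compared with untreated cells in their 4 libraries (14158 genes). The other comparisons and the interaction used all 8 libraries (14587 genes). Biological coefficients of variation were 0.0377 and 0.0406. CPM were scaled by TMM, and intervals are 95%. The scripts were tested on simulated data. Alternatives were RLE or library size scaling, DESeq2 1.42.0, no filter, a stricter filter, a fit on more or fewer libraries, a replicate block, and leaving out each library. Averaged effects were added after the data were seen. The members, the lists (IGF system and 5 lists of cell type markers) and the tests were chosen with earlier results of these data known. All members are named, as are called genes and receptors of the IGF system. The 2 nearest profiles are named for the member called in a planned comparison under the main settings. Marker genes called are named beside the results they accompany, a choice made after their values were seen. Protein sequences were not used here.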

Additional observations from a re-analysis of the deposited data

How the results depend on the processing

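Igf1, Igf2, Igfbp3, Igfbp4 and Igfbp7 kept their direction for A66 over untreated, Igf1, Igf2 and Igfbp3 for palmitate, and all 7 members for A66 added to palmitate, under every setting and left-out library tried. The causes of the changes below were not tested. Without the filter on low counts the genes called among all genes numbered 459 for A66, 396 for palmitate, 652 for A66 added to palmitate, 664 for palmitate added to A66 and 91 for the interaction, against 261, 171, 410, 398 and 1. Averaging each effect over the other treatment, added after seeing the data, gave 725 genes for A66, with 2 members, and 736 for palmitate. The 4 libraries of palmitate plus A66 and A66 alone gave 689 genes. The interaction gave 2 genes with scaling by library size, 21 with DESeq2 and 3 with the replicate block. Members called for A66 added to palmitate were 1 (Igfbp4) with library size only, 1 with DESeq2 and 1 without the filter.

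The signs that turned were those of values near 0 or of low genes. The averaged effects turned Igfbp5 (-0.083) and Igfbp6 (0.12) for A66, and Igfbp4 (-0.041) and Igfbp6 (0.096) for palmitate. Library size scaling turned Igfbp4 with palmitate (-0.0085). For palmitate added to A66, Igf2 turned with RLE (-8.7e-05), library size (-0.015), DESeq2 (-1.0e-04) and no filter (-2.1e-04).

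With each library left out in turn, the genes called ranged from 98 to 635 for A66, 71 to 245 for palmitate, 147 to 494 for A66 added to palmitate, 107 to 502 for palmitate added to A66 and 0 to 10 for the interaction. Members called ranged from 0 to 0, 0 to 1, 0 to 2, 0 to 0 and 0 to 0. The log2 fold changes that turned ranged for A66 from -0.30 to 0.54 (Igfbp5) and -0.37 to 0.18 (Igfbp6). For palmitate they ranged from -0.066 to 0.069 (Igfbp4), -0.056 to 0.79 (Igfbp5), -0.35 to 0.15 (Igfbp6) and -0.072 to 0.045 (Igfbp7). For palmitate added to A66 they ranged from -0.023 to 0.027 (Igf2) and -0.32 to 0.38 (Igfbp5), and for the interaction from -0.074 to 0.022 (Igfbp3), -0.79 to 0.052 (Igfbp5) and -0.078 to 0.039 (Igfbp7). A group with 1 library left was assumed to vary like the others.

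Libraries of different groups share only a replicate number, and the correlations of their deviations lay between -0.018 and 0.048. The replicate block gave 282, 195, 448 and 438 genes in the 4 comparisons between groups and the same number of members in each. Igfbp6 rests on 15 to 24 counts a library and Igfbp5 on 56 to 107, and the shares of counting error and replicate spread in their intervals were not separated.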
